A study of Mus musculus with 18 samples.

Results

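The 39 HOX genes measured on a mouse whole-genome expression array were followed across PA6 stromal mono-cultures and ES/PA6 co-cultures at day 3. Every probe whose gene name was HOX, a cluster letter from A to D and a number was taken, which gave 57 probes for 39 of the 30854 gene names on the array. All 39 names are current mouse gene symbols in RefSeq's annotation of GRCm38.p6. In PA6 mono-cultures without growth factors 11 of the 39 genes were detected on all 3 arrays (37.3% of all gene names were), and they lay in clusters A, B and D. In the same medium 9 of the 20 HOX genes tested gave lower signals in ES/PA6 co-cultures than in PA6 alone (19.5% of all genes tested were lower). Their log2 differences ran from -1.17 (HOXA2 and HOXA4) to -2.87 (HOXD9), while HOXB7 and HOXB1 gave higher signals (19.4% of all genes). The calls of HOXA2 and HOXB1 each rested on 1 array. With FGF2 in both cultures 7 of the 20 were lower and 1 higher (18.4% and 18.7% of all genes tested). With BMP4 11 were lower and 0 higher (19.1% and 19% of all genes tested). FGF2 moved no HOX gene past the threshold in either culture, and BMP4 lowered HOXB7 in the co-cultures. That HOXB7 call did not hold once replicate 2 of ES/PA6 BMP4 was dropped, nor in a fit that left PA6 mono-cultures out. It held with the replicate number fitted as a block. A second HOXB7 probe, at -1.25, was not called.

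HOX genes encode homeodomain transcription factors that give cells along the head to tail axis their regional identity. They sit in clusters, and the number of a gene is its place in the cluster: genes of low number are switched on early and reach up to the hindbrain, and genes of high number mark the lumbar, sacral and tail regions and the distal limbs. Genes of the same number in different clusters are paralogs. Adult fibroblasts and stromal cells keep a HOX pattern that records the body region they came from, whereas pluripotent cells hold the clusters silent under Polycomb repression and open them during differentiation, in response to retinoic acid, WNT and FGF signals.

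Total RNA came from 6 groups of 3 arrays each. PA6, a mouse stromal cell line, was kept alone or overlaid with mouse ES cells. The ES cells carry a knock-in of the green fluorescent protein EGFP under the promoter of tau, a neuronal gene. They had been maintained on embryonic fibroblast feeders before. Both culture types stood for 3 days in serum-free N2B27 medium without growth factors (-GFs), with 20 ng/ml FGF2 or with 10 ng/ml BMP4, and each biological replicate contributed 1 well per condition. The doses are those of the sample labels, whereas the study's methods, which name the medium, describe slide cultures with less BMP4. The co-culture arrays measured ES-derived and PA6 cells together, so fewer cells of a type and less RNA per cell cannot be told apart in any difference given here. Arrays detected between 17125 and 20412 of 45281 probes, and no pair held identical values. The 20 ES cell markers were detected in all 3 co-culture groups on every array, while 13 of the 20 were on no array of PA6 -GFs. Of the 26 stromal markers 25 were detected on all 3 PA6 -GFs arrays, and TAGLN on none. The summed normalized intensity of the stromal list ran from 409376 to 478176 on the PA6 arrays and from 204122 to 270399 on the co-culture arrays. Of the 10 endothelial markers 1 was detected on all 3 PA6 -GFs arrays. KDR, TEK and TIE1 were on at least 1 of those arrays, and CDH5, PECAM1, ICAM2, ESAM, EMCN, CLDN5 and VWF were on none. Values below are normalized log2 intensities of 1 probe per gene, listed for replicates 1, 2 and 3 in that order, and a level of a probe is set only against the same probe on other arrays.

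A gene counted as detected in a group when a probe of it had a detection p under 0.05 on all 3 arrays. By this rule 11 HOX genes were detected in PA6 -GFs, 12 in PA6 with FGF2 and 13 in PA6 with BMP4, against 37.3%, 37.6% and 38.5% of all gene names on the array. The co-cultures had 12 in -GFs, 12 in presence of FGF2 and 9 in presence of BMP4, beside 42.6%, 42.6% and 41.6% of all names. The same 11 genes were found on all 9 PA6 arrays: HOXA2, HOXA4, HOXA5, HOXA7, HOXA13, HOXB2, HOXB3, HOXB4, HOXD4, HOXD8 and HOXD9. Of these, 9 were detected on all 18 arrays, the exceptions being HOXB3, missed on 1 co-culture array with BMP4, and HOXD4, missed on every co-culture array. HOXB7 was detected on all 3 co-culture arrays in -GFs and FGF2 and on 2 of 3 with BMP4, but on no PA6 array. HOXB1 was detected on 2 of 3 co-culture arrays in -GFs and in FGF2 and nowhere else.

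**Figure D1:**
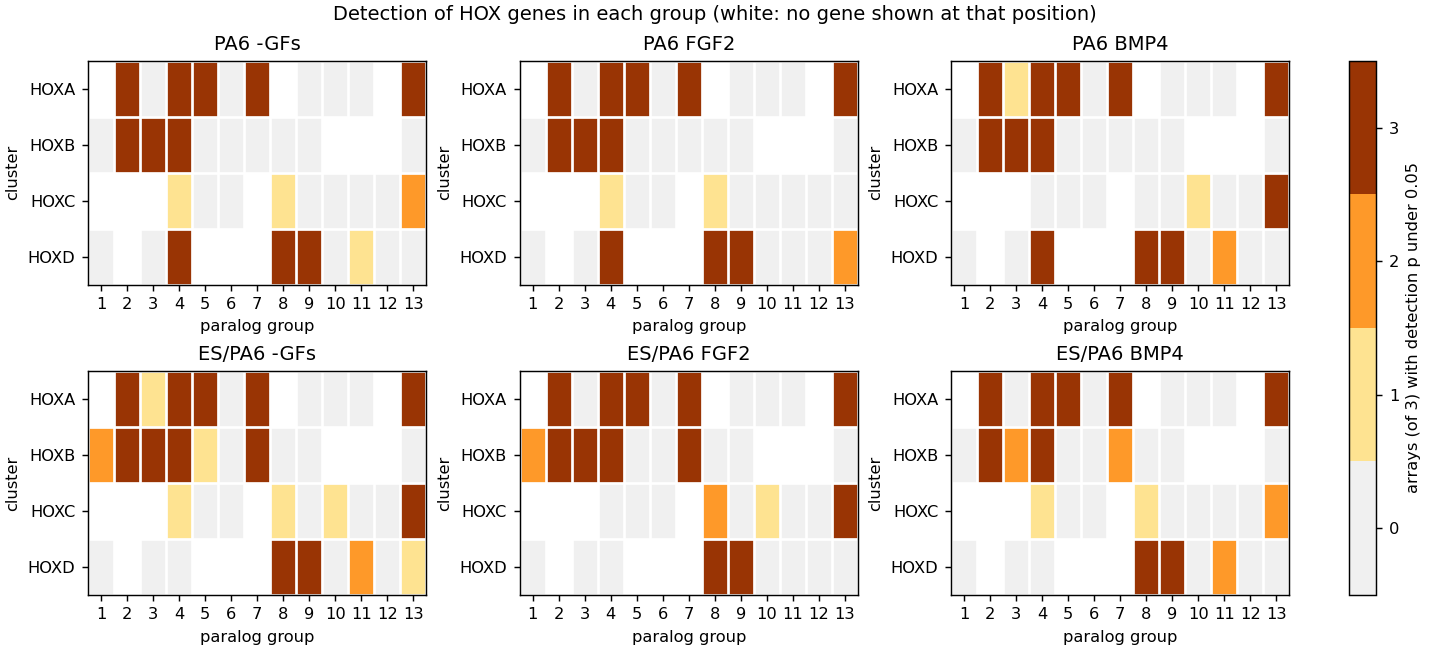
Number of arrays (0 to 3) with a detection p under 0.05 for the HOX genes shown, by cluster (rows) and paralog group (columns), in the 6 groups. In PA6 -GFs the 11 positions with 3 arrays lie in paralog groups 2 to 9 of clusters A, B and D, apart from HOXA13, HOXD4 is empty in all 3 co-culture panels, and HOXB7 is seen in co-cultures only.

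In PA6 -GFs the detected members lay mostly in the anterior and middle parts of the clusters. Detection covered 3 of 8 genes of paralog groups 1 to 3 (37.5%), 6 of 15 of groups 4 to 8 (40%) and 2 of 16 of groups 9 to 13 (12.5%). Of all gene names on the array 37.3% were detected in that group. Groups 1 to 3 and 4 to 8 were thus near the share of the whole array, and groups 9 to 13 were below it. By cluster it covered 5 of 11 HOXA, 3 of 10 HOXB, 0 of 9 HOXC and 3 of 9 HOXD genes. HOXC4, HOXC8 and HOXC13 were seen on 1 or 2 arrays of that group. Between HOXA7 and HOXA13, the genes HOXA9, HOXA10 and HOXA11 were on no array. In all, 17 HOX genes were on no array of the series, among them HOXB6, HOXB8, HOXB9 and HOXB13 of cluster B, HOXC5, HOXC6 and HOXC9 of cluster C and HOXD1, HOXD3, HOXD10 and HOXD12 of cluster D. A gene not detected here is one whose probe was not above background, and 28 of the 57 probes were in that state throughout.

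Some detections rested on 1 probe among several or lay close to background. HOXA13, which patterns digits and the genitourinary tract, was detected through 1 of its 3 probes, on all 18 arrays at 7.18 to 8.03, while its other 2 probes were on none. HOXC13, known for hair and nail differentiation, was detected on 3 of 3 arrays of PA6 with BMP4, co-cultures in -GFs and co-cultures with FGF2, yet its values over the 18 arrays spanned only 5.92 to 6.50. The levels of HOXC4, HOXC8, HOXC10, HOXD11 and HOXD13 lay between 5.0 and 6.62 and each of these genes was detected on 0 to 2 arrays of any group. HOXA3 was seen on 1 array of PA6 with BMP4 and, through another probe, on 1 co-culture array in -GFs. HOXB5 was seen on 1 co-culture array in -GFs, and neither gene reached the filter for testing. With these left aside, 20 HOX genes passed the filter of detection on at least 3 of 18 arrays and were tested, and 19 did not.

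Promoter sequence was available from RefSeq's GRCm38.p6 tables for 22 of the 39 HOX genes, as the 250 bases before the annotated start of each gene. The co-culture levels of HOXA2 and HOXB1 varied between replicates, and the signal of HOXB4 and HOXD4 was evenly lower in co-culture. The promoters of these 4 genes are shown, as examples of those 2 patterns of signal. Each is written 5′ to 3′ on the strand of its gene, HOXA2 from chr6:52164832-52165081 (minus strand), HOXB1 from chr11:96365508-96365757 (plus strand), HOXB4 from chr11:96318017-96318266 (plus strand) and HOXD4 from chr2:74721728-74721977 (plus strand). Capitals mark matches on either strand to TGATNNAT, the composite site that PBX and HOX proteins bind together, or to TTTATG, the core read by CDX proteins.
HOXA2: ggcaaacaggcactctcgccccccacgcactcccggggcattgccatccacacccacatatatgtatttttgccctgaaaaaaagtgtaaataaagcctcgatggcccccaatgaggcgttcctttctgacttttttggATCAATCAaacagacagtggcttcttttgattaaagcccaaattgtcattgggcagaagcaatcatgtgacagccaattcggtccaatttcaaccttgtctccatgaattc
HOXB1: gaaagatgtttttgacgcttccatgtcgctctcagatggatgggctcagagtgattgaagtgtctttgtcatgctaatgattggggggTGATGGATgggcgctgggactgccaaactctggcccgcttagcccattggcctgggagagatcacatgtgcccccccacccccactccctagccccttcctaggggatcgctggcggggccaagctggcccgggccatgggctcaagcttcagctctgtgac
HOXB4: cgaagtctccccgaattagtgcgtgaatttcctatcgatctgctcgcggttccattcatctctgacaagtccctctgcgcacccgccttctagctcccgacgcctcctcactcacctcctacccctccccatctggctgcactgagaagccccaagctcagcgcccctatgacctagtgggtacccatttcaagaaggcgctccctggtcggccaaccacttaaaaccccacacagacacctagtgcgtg
HOXD4: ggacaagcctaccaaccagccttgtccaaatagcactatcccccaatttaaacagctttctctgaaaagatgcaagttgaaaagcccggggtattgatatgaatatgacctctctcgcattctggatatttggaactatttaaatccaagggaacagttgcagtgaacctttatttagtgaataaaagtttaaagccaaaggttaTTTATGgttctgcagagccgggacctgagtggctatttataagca
HOXA2 held TGATNNAT on the opposite strand beginning at base -111 and HOXB1 held it on its own strand at -162, counted back from the gene start. HOXD4 held TTTATG at -45, and HOXB4 held neither motif in this window. TGATNNAT occurred in 3 of the 22 HOX promoters (13.6%) and in 7.68% of all 32851 promoters, and TTTATG in 5 of 22 (22.7%) and in 10.8%. Neither motif contains the other, and a match is a run of letters, not a measured binding site.

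ES/PA6 co-cultures were set against PA6 mono-cultures in the same medium to see which HOX signals of the stroma were present in the mixed culture and which were added. A gene was called where limma's Benjamini-Hochberg adjusted p over all 16446 genes tested was under 0.1 and the absolute log2 fold change was over 1. In -GFs medium 11 HOX genes were called, against 39% of all genes tested: 9 lower (19.5% of all genes) and 2 higher (19.4%). The 20 HOX genes tested had a median log2 fold change of -0.63, and all genes tested one of -0.11. Since the filter needed detection on only 3 arrays, members that passed through 1 culture type had to differ to some extent, and these counts are a description of the members. Among the 26 stromal markers 15 were lower and none higher in the same comparison, with a median over the 25 tested of -1.58, or -1.39 with POSTN at its bound. The part of stromal content in the HOX differences was not tested.

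**Figure D2:**
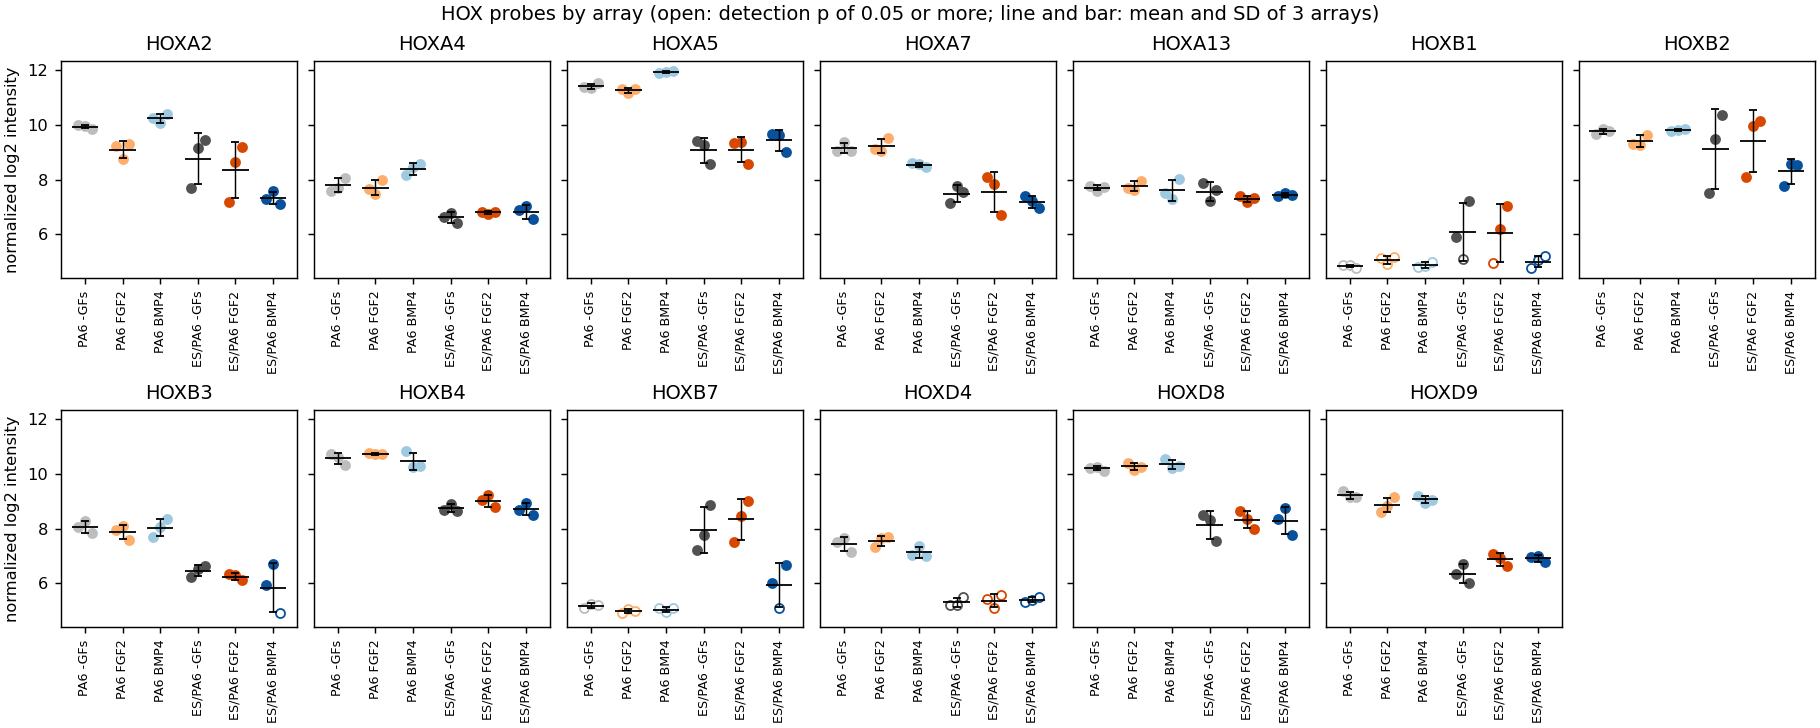
Normalized log2 intensity of 13 HOX genes on each array, by group. Filled points were detected, open points were not, and lines with bars give the mean and SD of 3 arrays. HOXD9, HOXD8, HOXD4, HOXB4 and HOXA5 separate by culture type, and in -GFs and FGF2 the co-culture points of HOXA2, HOXB1, HOXB2 and HOXB7 spread more widely than theirs.

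HOXD9, a gene of the posterior trunk and the proximal limb, showed the largest decrease in -GFs medium. Its PA6 arrays read 9.37, 9.15 and 9.15 in -GFs, 8.62, 8.81 and 9.15 in FGF2 and 9.20, 8.93 and 9.06 in BMP4. The co-culture arrays read 6.33, 6.71 and 6.02, then 7.08, 6.93 and 6.62, then 6.97, 7.0 and 6.77. No co-culture array reached any PA6 array, and the lowest values, 6.02 and 6.33, were of co-cultures without growth factors. The log2 fold change was -2.87 ± 0.179 (SE, n = 3 against 3, adjusted p = 8.12e-10) in -GFs, -1.98 in FGF2 (adjusted p = 7.62e-08) and -2.15 in BMP4 (adjusted p = 2.69e-08). The other HOXD9 probe gave -2.85, -1.84 and -2.17 in the same order.

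HOXD8, a trunk gene that neighbours HOXD9, read 10.23, 10.25 and 10.12 in PA6 -GFs, 10.40, 10.15 and 10.26 in PA6 with FGF2 and 10.55, 10.21 and 10.27 in PA6 with BMP4. In co-culture it read 8.49, 8.33 and 7.53, then 8.63, 8.36 and 7.99, then 8.34, 8.77 and 7.77. PA6 values hardly differed between media, and all co-culture values were lower. Its log2 fold change was -2.08 ± 0.254 (SE, adjusted p = 1.94e-06) in -GFs, -1.94 in FGF2 and -2.05 in BMP4.

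HOXD4, a determinant of the upper neck vertebrae, was the member whose signal was lost from detection in co-culture. It read 7.50, 7.64 and 7.15 in PA6 -GFs, 7.34, 7.65 and 7.68 with FGF2 and 7.02, 7.37 and 7.01 with BMP4, detected each time. The 9 co-culture arrays read between 5.11 and 5.56 and none was detected. The measured levels therefore bound the difference: PA6 was at least 2.92-fold higher in -GFs (adjusted p = 9.90e-09), at least 3.22-fold in FGF2 (adjusted p = 7.31e-09) and at least 2.26-fold in BMP4 (adjusted p = 1.13e-07). The p-values are of the fitted difference, not of the bound. The bounds hold for this normalization only: without background correction the fitted difference in BMP4 was -0.89 on the log2 scale and was not called. HOXD4 passed the filter through PA6 arrays only, so some difference was built in.

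HOXB4 and HOXA4, paralogs of HOXD4 that pattern the neck, kept a detected signal in co-culture. HOXB4, also known for expanding blood stem cells, read 10.73, 10.62 and 10.34 in PA6 -GFs, 10.77, 10.72 and 10.71 with FGF2 and 10.82, 10.25 and 10.30 with BMP4. Its co-culture arrays read 8.69, 8.90 and 8.64, then 9.03, 9.24 and 8.79, then 8.69, 8.93 and 8.49. The separation was complete, and the log2 fold change was -1.82 ± 0.170 (SE, adjusted p = 1.00e-07), -1.71 and -1.75 in the 3 media.
HOXA4 read 7.59, 7.70 and 8.07 in PA6 -GFs, 7.66, 7.47 and 7.99 with FGF2 and 8.16, 8.44 and 8.58 with BMP4. In co-culture it read 6.63, 6.79 and 6.42, then 6.83, 6.73 and 6.83, then 6.87, 7.05 and 6.54. Its PA6 values were highest with BMP4, and its groups did not overlap in any medium. The log2 fold change was -1.17 ± 0.175 (SE, adjusted p = 1.77e-05) in -GFs, -0.91 in FGF2, short of the fold threshold, and -1.57 in BMP4. With median scaling it was -0.99 in -GFs and with an offset of 50 it was -0.95, so that this call depended on the scaling.

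HOXA5, a gene of lung development and of the junction between neck and thorax, read 11.39, 11.33 and 11.51 in PA6 -GFs, 11.31, 11.16 and 11.31 with FGF2 and 11.88, 11.94 and 11.96 with BMP4. The co-culture arrays read 9.39, 9.26 and 8.55, then 9.34, 9.36 and 8.56, then 9.68, 9.61 and 8.99. Replicate 3 was the lowest co-culture array in each medium, as it was for HOXD8. The log2 fold change was -2.35 ± 0.236 (SE, adjusted p = 2.31e-07), -2.17 and -2.50.
HOXA7, a thoracic gene, read 9.06, 9.36 and 9.03 in PA6 -GFs, 9.10, 9.05 and 9.51 with FGF2 and 8.60, 8.56 and 8.46 with BMP4. Its co-culture arrays read 7.14, 7.75 and 7.56, then 8.08, 7.82 and 6.70, then 7.38, 7.22 and 6.96. PA6 with BMP4 lay below the other PA6 groups but above every co-culture array. The log2 fold change was -1.66 ± 0.270 (SE, adjusted p = 4.38e-05), -1.69 and -1.36.

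HOXB3, which acts in the hindbrain and the pharyngeal region, read 8.07, 8.29 and 7.83 in PA6 -GFs, 7.95, 8.09 and 7.60 with FGF2 and 7.71, 8.06 and 8.34 with BMP4. In co-culture it read 6.23, 6.51 and 6.63, then 6.34, 6.29 and 6.11, then 5.93, 6.69 and 4.91, the last not detected. The groups were apart in all 3 media, with log2 fold changes of -1.61 ± 0.312 (SE, adjusted p = 2.48e-04), -1.63 and -2.19. Another HOXB3 probe that passed the filter gave -0.54, 0.13 and -1.01, of which only the BMP4 value was called.

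HOXA2 and HOXB2, hindbrain genes of which HOXA2 also specifies the second pharyngeal arch, differed from the members above in how their co-culture arrays spread in -GFs and FGF2. HOXA2 read 10.00, 9.95 and 9.86 in PA6 -GFs, 9.24, 8.75 and 9.29 with FGF2 and 10.26, 10.07 and 10.40 with BMP4. Its co-culture arrays read 7.70, 9.16 and 9.43 in -GFs, 7.19, 8.65 and 9.19 with FGF2 and 7.30, 7.57 and 7.10 with BMP4. The groups overlapped in FGF2, through replicate 3, and not in -GFs or BMP4, and replicate 1 lay lowest in the first 2 media. The log2 fold change was -1.17 ± 0.430 (SE, adjusted p = 0.0245) in -GFs, -0.75 (adjusted p = 0.134) in FGF2 and -2.92 (adjusted p = 1.63e-05) in BMP4. Without replicate 1 of the ES/PA6 -GFs group the first value was -0.64 (adjusted p = 0.167), so that call rested on 1 array. The other HOXA2 probe was called lower in all 3 media, at -1.39, -1.26 and -3.13.
HOXB2 was outside the rule for genes shown by array and was added after its values were seen. It read 9.66, 9.83 and 9.78 in PA6 -GFs, 9.31, 9.25 and 9.64 with FGF2 and 9.76, 9.81 and 9.85 with BMP4. In co-culture it read 7.50, 9.49 and 10.36, then 8.09, 9.97 and 10.14, then 7.78, 8.58 and 8.53. Replicate 3 in -GFs and replicates 2 and 3 with FGF2 exceeded every PA6 array of the same medium. Its log2 fold change was -0.64 (95% interval -1.84 to 0.56) in -GFs, 0.00 (-1.20 to 1.20) in FGF2 and -1.51 (adjusted p = 0.0271) in BMP4, the only one called.

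HOXB7, a thoracic gene, moved the other way. Its PA6 arrays read 4.93 to 5.25 in all 3 media with no detection. The co-culture arrays read 7.20, 7.77 and 8.87 in -GFs, 7.52, 8.46 and 9.02 with FGF2 and 6.02, 5.10 and 6.68 with BMP4, the middle one of the last not detected. Co-cultures were at least 3.14-fold higher than PA6 in -GFs (adjusted p = 1.85e-05) and at least 4.21-fold higher in FGF2 (adjusted p = 2.55e-06). These p-values are of the fitted difference, not of the bound. Like HOXB1, HOXB7 passed the filter through co-culture arrays only, so some difference was built in. With BMP4 the fitted difference of 0.89 was not called. The other HOXB7 probe was called higher in -GFs and FGF2 too (adjusted p = 3.80e-04 and 1.12e-04 over probes).
HOXB1, the hindbrain gene that opens early in response to retinoic acid, read 4.78 to 5.16 on the PA6 arrays. In co-culture it read 5.91, 5.10 and 7.21 in -GFs, 4.94, 6.19 and 7.02 with FGF2 and 4.77, 5.05 and 5.19 with BMP4. Replicate 3 stood highest in both media in which the gene was detected. The call in -GFs (fitted log2 difference 1.23, adjusted p = 0.0235) was lost without that array, at 0.66 (adjusted p = 0.162), and the group means lay too close to the detection floor for a fold. The other HOXB1 probe did not pass the filter.

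**Figure D3:**
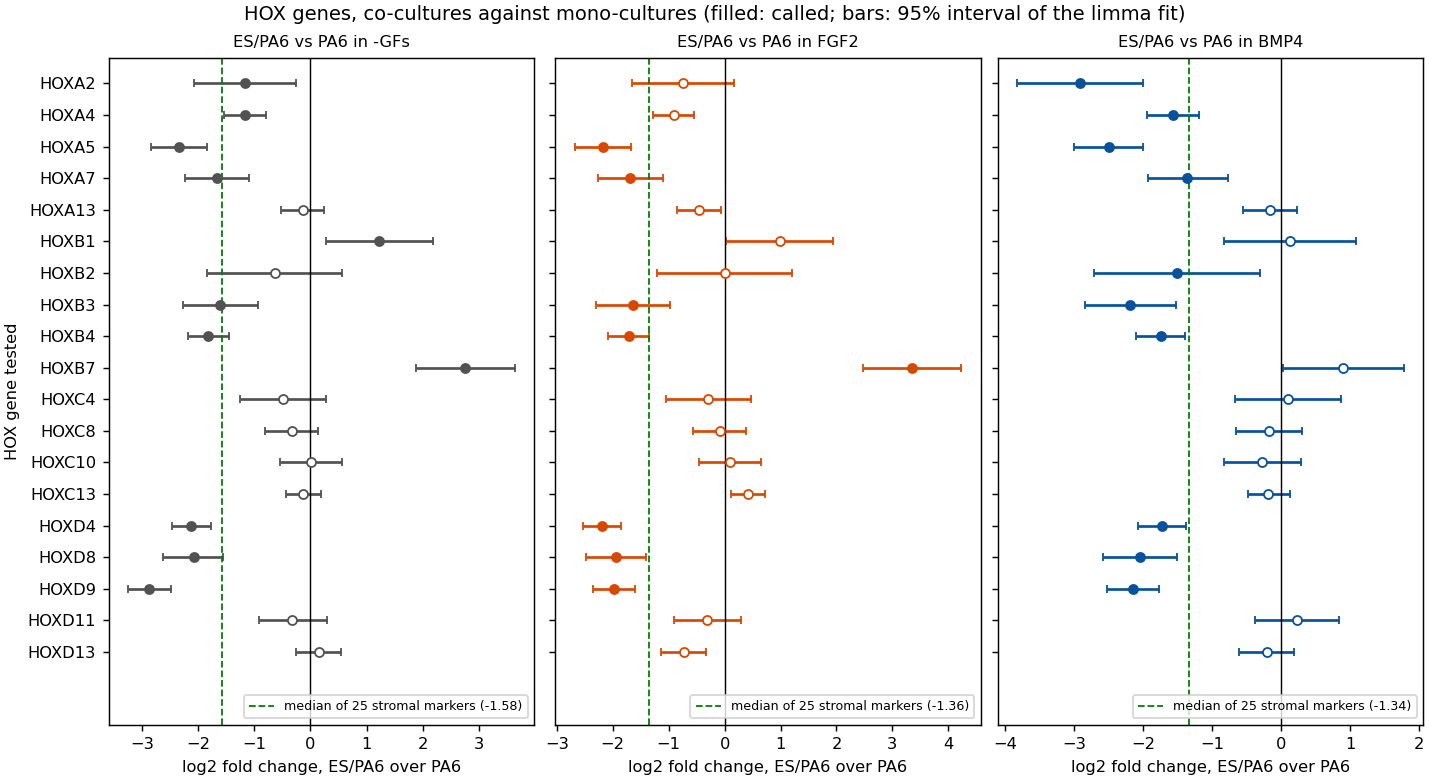
Log2 fold change of ES/PA6 over PA6 with its 95% interval for 19 of the 20 HOX genes tested, in the 3 media. Filled points were called, and the dashed line is the median of 25 stromal markers (-1.58, -1.36 and -1.34). HOXA5, HOXB4, HOXD4, HOXD8 and HOXD9 lie below 0 in every medium, HOXB7 lies above it in -GFs and FGF2, and the HOXC genes and HOXA13 lie near 0.

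The same comparison was made in the other media. In FGF2 8 HOX genes were called against 37.2% of all genes, HOXB7 higher (18.7% of all genes) and HOXA5, HOXA7, HOXB3, HOXB4, HOXD4, HOXD8 and HOXD9 lower (18.4%). In BMP4 11 were called against 38.1%, all of them lower (19.1% of all genes), among them HOXA2, HOXA4, HOXA5, HOXA7, HOXB2, HOXB3, HOXB4, HOXD4, HOXD8 and HOXD9. These 3 comparisons have no arrays in common, but they came from 1 fit with 1 shared estimate of the spread. Co-culture arrays of the same replicate number also deviated together, so the 3 comparisons are not independent. The 4 tested HOXC genes, HOXA13, HOXD11 and HOXD13 were called in none of the 3 media, and HOXA13 differed by -0.14, -0.46 and -0.16. Stromal markers were lower in 20 of 25 tested in FGF2 and 19 of 25 in BMP4, with none higher.

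FGF2 was compared with -GFs medium in each culture type, since FGF signals act on HOX clusters in the embryo. In co-cultures limma called 0 HOX genes, with 1 at an unadjusted p under 0.05, against 3.34% of all genes called and 17.8% at that unadjusted p. That 1 was HOXD9, at 0.52 (adjusted p = 0.108), with groups of 6.33, 6.71 and 6.02 against 7.08, 6.93 and 6.62 that overlapped. Within replicates 1, 2 and 3 it differed by 0.75, 0.22 and 0.60, and with the replicate number as a block its adjusted p was 0.0422, still under the fold threshold. HOXB7 differed by 0.39 (95% interval -0.49 to 1.26 without the block) and by 0.32, 0.69 and 0.15 within replicates. HOXA2 differed by -0.42 and by -0.52, -0.50 and -0.24 within replicates. The differences of HOXD9, HOXB7 and HOXA2 thus had 1 sign in all 3 replicates, whereas HOXB2, at 0.28, gave 0.59, 0.48 and -0.21. HOXA13, HOXB4, HOXC13 and HOXD8 also had 1 sign in all 3. The share of all genes with such a sign was not counted, so whether it marks a response was not tested. The groups of HOXD9, HOXB7, HOXA2 and HOXB2 overlapped. In PA6 alone limma also called 0, with 1 at an unadjusted p under 0.05, against 5.27% of all genes called and 26% at that unadjusted p. That gene was HOXD13, at 0.59 (adjusted p = 0.0449) and below the fold threshold, detected on 2 of 3 arrays with FGF2 and on none without. HOXA2 in PA6 was 9.24, 8.75 and 9.29 with FGF2 against 10.00, 9.95 and 9.86 without, groups that did not overlap, yet its change of -0.84 (adjusted p = 0.237) was not called.

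BMP4 lowered 1 HOX gene in the co-cultures, against 0.45% of all genes called lower and 0.76% called either way. Another 3 of the 4 members at an unadjusted p under 0.05 (10.9% of all genes) were not called. HOXB7 fell from 7.20, 7.77 and 8.87 to 6.02, 5.10 and 6.68, which is -2.01 ± 0.414 on the log2 scale (SE, adjusted p = 0.0318), and the groups did not overlap. Within replicates 1, 2 and 3 the change was -1.18, -2.67 and -2.19. The call was lost without replicate 2 of the ES/PA6 BMP4 group, at -1.60 (adjusted p = 0.124), and with only the 9 co-culture arrays in the fit, at -2.04 (adjusted p = 0.273). HOXB7's other probe changed by -1.25 and was not called.
HOXA2 changed by -1.44 (adjusted p = 0.153) in the same comparison, with no overlap between its groups. It was called with the replicate number as a block (adjusted p = 0.0244), which the co-cultures allow because their same-numbered arrays deviate together, and also without replicate 1 of ES/PA6 -GFs, at -1.98 (adjusted p = 0.0248). Leaving out replicate 1 or replicate 3 of ES/PA6 FGF2, arrays outside the comparison, brought the adjusted p to 0.0496 and 0.0937. HOXD9 was 0.56 higher (adjusted p = 0.193) with no overlap, HOXB1 changed by -1.07 (adjusted p = 0.375) and HOXB2 by -0.82 (adjusted p = 0.709), none of them called. HOXB2 ran from -0.20 without replicate 3 of ES/PA6 -GFs to -1.63 without replicate 1, and HOXB1 was -0.50 without replicate 3. Of the HOX genes lower in co-culture at -GFs, HOXA4, HOXA5, HOXA7, HOXB3, HOXB4, HOXD4, HOXD8 and HOXD9 were not called between BMP4 and -GFs co-cultures.

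**Figure D4:**
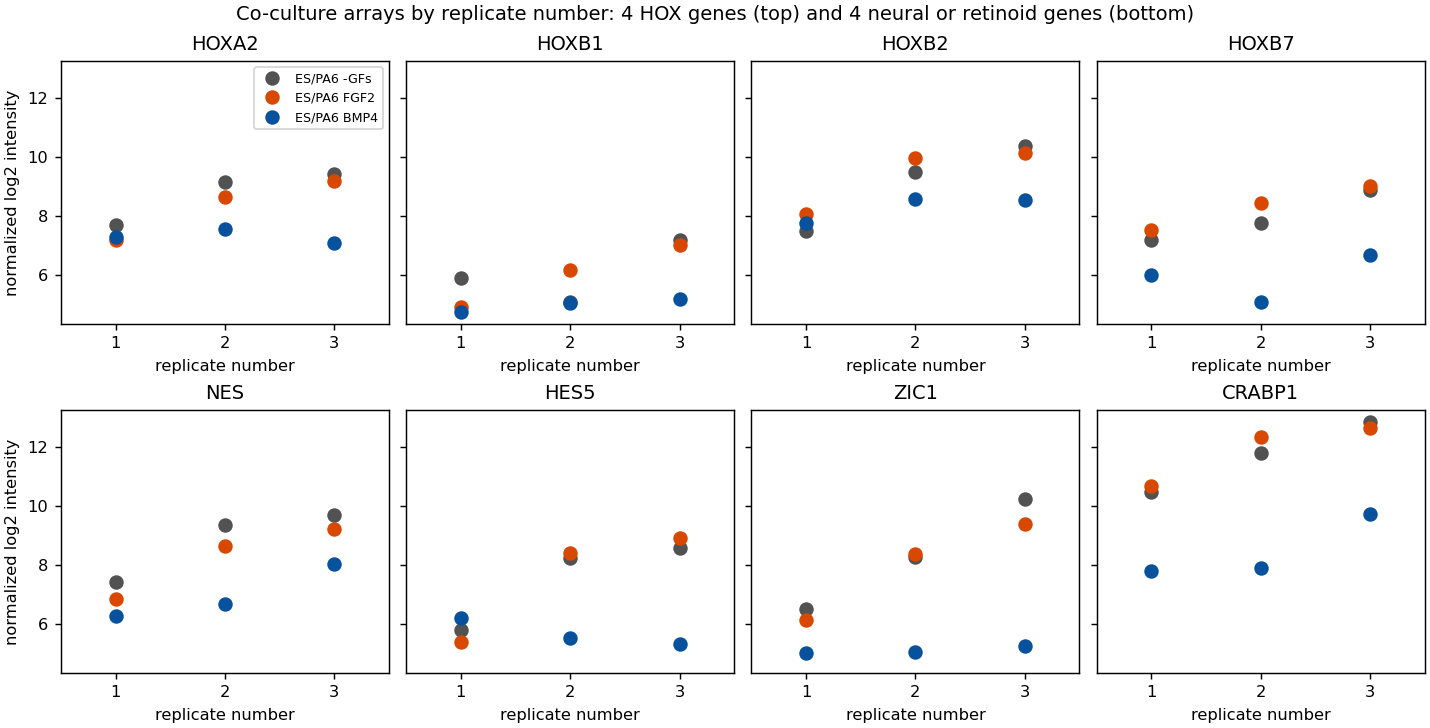
Normalized log2 intensity on the 9 co-culture arrays by replicate number for HOXA2, HOXB1, HOXB2 and HOXB7 (top) and for NES, HES5, ZIC1 and CRABP1 (bottom), coloured by medium. Replicate 1 is the lowest array with FGF2 in all 8 panels and the lowest in -GFs in all but HOXB1, and at replicates 2 and 3 the BMP4 value is the lowest of the 3 media in all 8.

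The co-culture spread of HOXA2, HOXB1, HOXB2 and HOXB7 was set beside that of early neural genes. NES, an intermediate filament gene of neural progenitors, read 7.43, 9.36 and 9.69 in -GFs, 6.87, 8.65 and 9.21 with FGF2 and 6.28, 6.69 and 8.05 with BMP4. ZIC1, a transcription factor of the neural plate border, read 6.52, 8.29 and 10.23, then 6.15, 8.39 and 9.40, then 5.04, 5.06 and 5.26. As for HOXA2, HOXB2 and HOXB7, replicate 1 was the lowest array in -GFs and FGF2. The summed intensity of the 4 tested neural markers (NES, HES5, ZIC1 and DCX) ran from 366 to 2556 in -GFs co-cultures, 277 to 1948 with FGF2, 221 to 380 with BMP4 and 142 to 169 in PA6, and SOX1, PAX6 and TUBB3 were on no co-culture array. ZIC1 was lower with BMP4 by at least 5.24-fold (adjusted p = 0.0605). The part of neural content in the HOX values was not tested.

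In PA6 alone BMP4 moved no HOX gene past the threshold: limma called 0, with 4 at an unadjusted p under 0.05, against 1.41% of all genes called and 12.6% at that unadjusted p. HOXA4 differed by 0.61 (adjusted p = 0.0880), under the fold threshold, and HOXA5 by 0.52 (adjusted p = 0.374). HOXA7 differed the other way, by -0.61 (adjusted p = 0.354), with -0.45, -0.79 and -0.57 within replicates 1, 2 and 3. The groups of these 3 genes did not overlap, and neither did those of HOXA2, at 0.31 (adjusted p = 0.893). The share of all genes with such groups was not counted, so the separation is a description only.

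**Figure D5:**
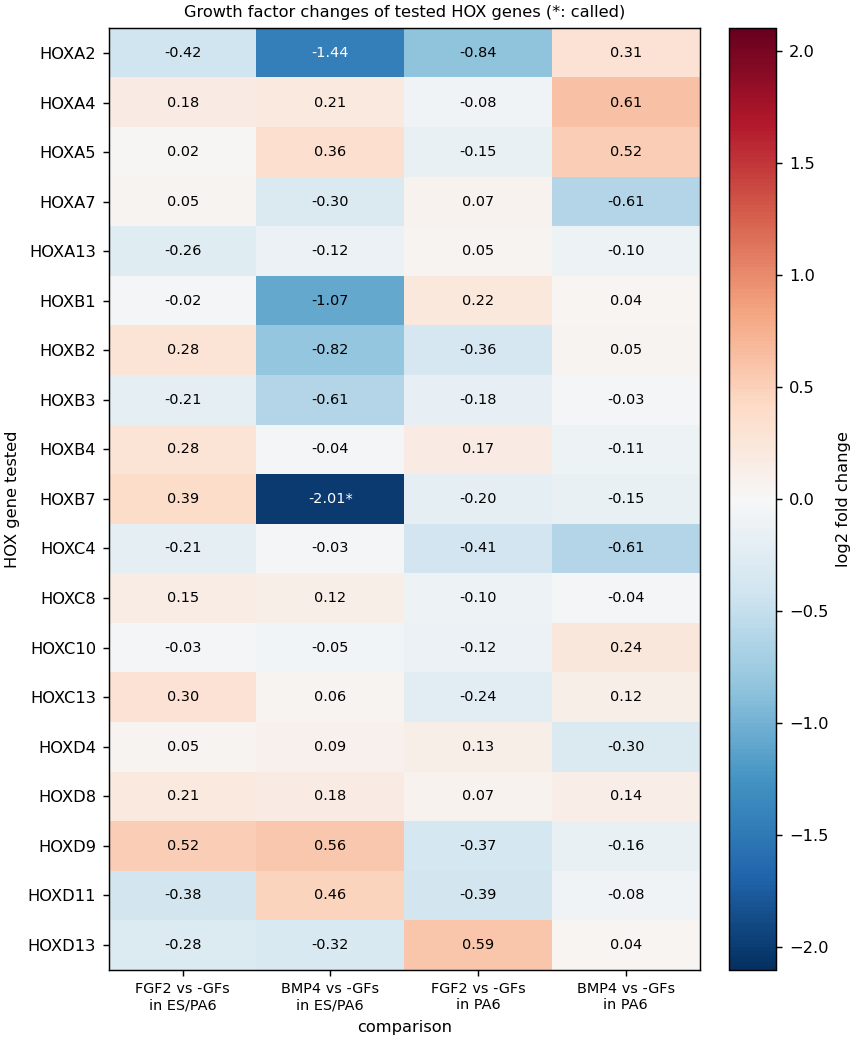
Log2 fold change of 19 of the 20 HOX genes tested for each growth factor against -GFs medium in ES/PA6 co-cultures and in PA6 alone, red for higher and blue for lower, with an asterisk on called values. HOXB7 with BMP4 in co-cultures (-2.01) carries the only asterisk.

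An interaction term asked whether a growth factor moved a gene differently in co-cultures and in PA6. For FGF2 limma called 0 HOX genes with 3 at an unadjusted p under 0.05, against 7.39% of all genes called and 23.8% at that unadjusted p. For BMP4 it called 0 with 4 at an unadjusted p under 0.05, against 0.559% and 9.74%. HOXB7 gave -1.87 (adjusted p = 0.233) and HOXA2 -1.75 (adjusted p = 0.299) for BMP4. With the replicate number as a block both were called, HOXB7 at an adjusted p of 0.0237 and HOXA2 at 0.0665. HOXA2 was also called without replicate 1 of ES/PA6 -GFs, at -2.29 (adjusted p = 0.0808).

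Transcripts of proteins that work with HOX factors were measured too. The TALE homeodomain proteins (PBX, MEIS and PKNOX) bind DNA together with HOX proteins, and all 9 were tested. In -GFs medium 4 were lower in co-culture and none higher, where 19.5% and 19.4% of all genes were, among them PKNOX2 at -2.25, MEIS3 at -1.45 and MEIS2 at -1.09 (adjusted p from 3.68e-07 to 1.58e-04). The counts lower were 4 in FGF2 and 5 in BMP4, against 18.4% and 19.1% of all genes, and in BMP4 MEIS1 was added at -1.25 (adjusted p = 0.0176). No TALE gene was called for either growth factor in either culture type. The CDX and ParaHox genes, homeobox relatives of which the CDX factors open posterior HOX genes, were mostly below background: of 6, only CDX1 was tested and it was called in no comparison, and CDX2 was on no PA6 array and on none of the -GFs and BMP4 co-culture arrays.

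Among 18 genes of the retinoic acid pathway, which drives anterior HOX genes, 13 were tested. In co-culture at -GFs 2 were higher and 4 lower, against 19.4% and 19.5% of all genes. The higher ones were the retinoic acid binding proteins CRABP1, by at least 42.1-fold (adjusted p = 3.95e-08), and CRABP2, by at least 18.8-fold (adjusted p = 2.00e-07). Among the 4 lower genes were the synthesis enzymes ALDH1A1 (-3.84) and ALDH1A3 (-1.43) and the receptor RARB, the last by at least 1.61-fold and not detected in those co-cultures. CRABP1 was lower with BMP4 in co-cultures, at -3.21 (adjusted p = 0.0152), and so was CRABP2, at -2.08 (adjusted p = 0.0766). As with HOXB7, replicate 1 of CRABP1 was the lowest and replicate 3 the highest in -GFs and FGF2: the gene read 10.46, 11.79 and 12.84 in -GFs, 10.68, 12.34 and 12.65 with FGF2 and 7.80, 7.92 and 9.74 with BMP4. FGF2 lowered ALDH1A1 in co-cultures by at least 1.62-fold (adjusted p = 0.0860).

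Of the 25 Polycomb genes, which keep HOX clusters silent, 22 were tested and 8 were higher and 3 lower in co-cultures at -GFs, against 19.4% and 19.5% of all genes. CBX7 was higher by at least 20.3-fold (adjusted p = 9.29e-14), PHC1 by 2.92 and PCGF6 by 2.47 on the log2 scale, and the methyltransferase EZH2 by 2.27. CBX8 (-2.28), BMI1 (-1.68) and CBX6 (-1.14) were the lower ones. All 11 genes of the opposing Trithorax group and the H3K27 demethylases were tested, with 3 higher (DPY30 at 1.80, ASH2L at 1.76, WDR5 at 1.35) and 2 lower (ASH1L at -1.30, and MLL3), counts close to those shares of all genes. In the retinoic acid, Polycomb and Trithorax lists, genes named beyond the 4 largest differences were picked after their values were seen. No Polycomb or Trithorax gene was called for FGF2 or BMP4 against -GFs in either culture type.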

How the data were processed

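Total RNA of 18 cultures was hybridised to Illumina MouseWG-6 BeadChips, 3 per group. The authors deposited a table of non-normalized probe intensities with a detection p-value for each array, with GenomeStudio 2011.01 named in the submitters' processing notes. Of its lines, 45281 held a probe and 5 stray lines were left out. 0 columns of sample values were unused. Intensities were normalized here with neqc of limma 3.58.1 in R 4.3.3 (normexp on negative controls inferred from the detection p, offset 16, quantile, log2). A filter kept the 22987 probes that were detected (p under 0.05) on 3 or more arrays, and the probe with the largest mean stood for each of 16446 genes. Group means of all 18 arrays were fitted together with lmFit and eBayes, without a block. Thresholds on the adjusted p (0.1), the log2 fold change (1) and the choice of probe followed the study's methods, which used cubic spline normalization, tried here as an alternative. The pipeline was tested on simulated data.

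Where no array of 1 group detected a gene, a fold is the detected group's mean over the other's. For it, each undetected array was set to the lowest detected signal of that array or the probe's own, whichever was higher. Such folds hold for this normalization and make no allowance for error. Arrays of the same replicate number deviated together in co-cultures (r from 0.325 to 0.521 over 9 pairs), where the labels tie each number to a biological replicate with 1 well per condition. In PA6 they did so less (0.0628 to 0.164), and across culture types r ran from -0.0248 to 0.175. Values by array are given for members called in a growth factor or interaction comparison and for the 12 called members with the largest difference in -GFs medium, of which there were 11. For related lists up to 4 called members each are named. The members and lists were chosen with earlier results of these data known. Summed levels of marker lists are over their tested genes. Values of a few genes that enter the counts are not reported here. The number of arrays limits the precision.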

Additional observations from a re-analysis of the deposited data

Results flagged for a closer look

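The effect of FGF2 differed between culture types for 2 HOX genes by the adjusted p of the interaction, each short of the log2 threshold of 1. For HOXD9 the difference between the FGF2 effect in ES/PA6 and that in PA6 was 0.89 (adjusted p = 0.0354), made of 0.52 in co-cultures and -0.37 in PA6. The other HOXD9 probe gave 1.01 (adjusted p = 0.120 over probes). HOXD9 passed the log2 threshold without replicate 3 of PA6 FGF2 (1.04), replicate 2 of ES/PA6 -GFs (1.07) or replicate 3 of ES/PA6 FGF2 (1.02). For HOXD13, a gene of digit formation, the difference was -0.88 (adjusted p = 0.0480), made of -0.28 in co-cultures and 0.59 in PA6. HOXD13 lay near the detection floor, on 2 of 3 PA6 FGF2 arrays, 1 of 3 ES/PA6 -GFs arrays and on no other array. It passed the log2 threshold without replicate 3 of PA6 FGF2 (-1.09) or replicate 3 of ES/PA6 FGF2 (-1.03).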

How the results depend on the processing

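Of 31 called differences of members, 23 were called under every alternative that tested them and without any 1 array, 8 were lost under at least 1, and none reversed. Without background correction (quantile or cubic spline) the 11 calls of the -GFs culture comparison became 7, losing HOXA2, HOXA4, HOXB1 and HOXB3, each at an absolute log2 value between 0.70 and 0.99, the 8 calls in FGF2 became 7 (HOXB3 at -0.95) and the 11 in BMP4 became 9 (HOXA7 at -0.95, HOXD4 at -0.89). Detection on all 18 arrays left 7 of 11 in -GFs, 5 of 8 in FGF2, 8 of 11 in BMP4 and 0 of 1 for BMP4 in co-cultures, since it removes members such as HOXB1, HOXB3, HOXB7 and HOXD4 from testing. Without the fold threshold FGF2 medium gave 14, FGF2 in PA6 gave 1 (HOXD13), BMP4 in PA6 gave 1 (HOXA4) and the FGF2 interaction gave 2. With the replicate block BMP4 in co-cultures gave 2, the BMP4 interaction gave 3, and no other count changed. With only the ES/PA6 arrays BMP4 gave 0. Without 1 array the calls ran from 10 to 11, 8 to 9 and 11 to 12 for the culture comparison in -GFs, FGF2 and BMP4, 0 to 2 for BMP4 in co-cultures, 0 to 1 for BMP4 in PA6, and 0 to 2 and 0 to 1 for the FGF2 and BMP4 interactions. Differences of dim members such as HOXB1, HOXC13 and HOXD13 are limited by signal over background.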

Other observations

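Homeobox genes of the head region, in front of the HOX domain, were followed beside the HOX genes as a list of 23, of which 13 were tested. In -GFs co-cultures 3 were higher and 4 lower than in PA6, against 19.4% and 19.5% of all genes. The higher ones were OTX2, a forebrain and epiblast gene, by at least 87.3-fold (adjusted p = 1.30e-15), GBX2 by at least 57.6-fold (adjusted p = 1.32e-10) and EN2 by at least 6.24-fold (adjusted p = 2.74e-09). Lower were EN1 (-1.91), OTX1 (-1.90), DLX1 (-1.53) and MSX1 (-1.45). In co-cultures FGF2 lowered OTX2, at -2.51 on the log2 scale (adjusted p = 1.88e-07), and raised DLX1 by 1.70 and EN2 by 1.03, and BMP4 lowered GBX2, at -1.76 (adjusted p = 0.0426), and raised DLX1 by 1.54 (adjusted p = 0.0741).

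Transcription factors that mark regions of the mesenchyme formed a list of 31, with 17 tested. In -GFs medium 10 were lower and 3 higher in co-culture, against the same shares of all genes, among them TWIST2 (-4.61), FOXF1 (listed on the array as FOXF1A, -2.73), FOXC2 (-2.58) and TBX15 (not detected in co-culture, lower by at least 3.97-fold). TBX4 and ISL1 were among the 3 higher ones, by at least 6.17-fold and 1.71-fold. HAND1, HAND2, TBX5, PITX1 and BARX1 were on no array of either culture type in any medium. Of 14 primitive streak and posterior genes 8 were tested, and in -GFs WNT3A and FGF8 were higher, by at least 4.06-fold and 1.11-fold, and TBX6 (-1.81) and WNT5A (-1.57) lower. Genes named in these 3 lists beyond the 4 largest differences were picked after their values were seen.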
